A study of Rattus norvegicus with 24 samples.

Results

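Albumin (Alb), transthyretin (Ttr) and alpha-fetoprotein (Afp) are plasma proteins made by hepatocytes, and their transcripts were followed across a dose series of TCDD in rat liver. The 3 genes were taken by their Ensembl IDs, ENSRNOG00000002911 for Alb, ENSRNOG00000016275 for Ttr and ENSRNOG00000002889 for Afp, out of 26404 IDs counted in each library. The names were given together with these IDs, and no table used here pairs the other IDs with names. The rats were 24 Sprague-Dawley females (outbred) with a labelled age of 57 days, and liver RNA of each gave 1 library, 3 in each of 8 groups. Controls received the sesame oil vehicle alone by gavage. The 7 treated groups received TCDD at doses of 10, 3, 1, 0.3, 0.1, 0.03 and 0.01 µg/kg. Gavage was repeated at intervals of 4 days, and day 28 was the day of liver collection. TCDD (2,3,7,8-tetrachlorodibenzo-p-dioxin) is a persistent dioxin that binds the aryl hydrocarbon receptor, a transcription factor. Each dose was compared with vehicle for the levels of these hepatocyte transcripts.

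Albumin is the most abundant protein of blood plasma and carries fatty acids, hormones and drugs. Transthyretin is a carrier of thyroxine and, bound to retinol-binding protein, of retinol. Alpha-fetoprotein is a relative of albumin from the same gene family. Fetal hepatocytes secrete it in large amounts, its gene is shut down after birth, and it comes back in regenerating liver and in hepatocellular carcinoma. High Alb and Ttr with very low Afp is therefore the textbook profile of the mature hepatocyte. Liver-enriched factors such as HNF1, HNF4, FOXA and C/EBP are known to drive hepatocyte genes of this kind.

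Alb and Afp lie next to each other on rat chromosome 14 in the RefSeq annotation of the assembly GRCr8, with 0 genes between them, and Ttr lies on chromosome 18. The 250 bases before the RefSeq start of Alb and Afp are shown because these neighbours of 1 family are textbook targets of HNF1. Both runs are given 5′ to 3′ on the minus strand, which is the strand of the genes, at chr14:17906980-17907229 for Alb and chr14:17875646-17875895 for Afp (GRCr8, RefSeq). Capitals mark GTTAAT, the letters that open the recognition motif of HNF1.
Alb: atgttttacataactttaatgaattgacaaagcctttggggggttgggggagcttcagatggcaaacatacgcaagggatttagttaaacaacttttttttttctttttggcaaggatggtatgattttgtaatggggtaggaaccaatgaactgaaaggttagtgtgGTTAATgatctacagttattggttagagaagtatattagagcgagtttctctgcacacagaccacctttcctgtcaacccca
Afp: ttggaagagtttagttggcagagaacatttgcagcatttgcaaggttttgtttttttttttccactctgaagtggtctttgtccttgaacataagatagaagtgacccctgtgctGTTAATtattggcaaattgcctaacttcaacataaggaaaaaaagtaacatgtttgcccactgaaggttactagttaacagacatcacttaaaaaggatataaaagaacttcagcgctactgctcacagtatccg
Each run held GTTAAT 1 time, with its first base 82 bases before the start in Alb and 135 bases before it in Afp. The 250 bases before the RefSeq start of Ttr held it 0 times on either strand, and that start may not be the one used in liver. GTTAAT or its reverse complement occurred in 6.45% of the 33469 promoter windows of that length. The TATA letters TATAAA, or their reverse complement, were present in the Afp window only among these 3 genes, and in 12.9% of all windows. The core letters of the dioxin response element, GCGTG, occurred on neither strand in the 3 windows, and in 25.9% of all windows. These matches describe the letters only.

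Gene counts per library ranged from 11816273 to 15804887. Levels are given as a share of the gene counts of a library. At this depth the largest 95% Wilson half-width of a single share was 0.0192 percentage points for Alb and 0.00529 for Ttr, which covers counting error only. Changes against vehicle were tested with edgeR after TMM scaling, which sets the library sizes so that most genes have no net change. A gene was called at a Benjamini-Hochberg adjusted p below 0.05 over all 12496 IDs tested, and all 3 genes passed the filter on low counts. Non-unique alignments, which HTSeq leaves out of the gene counts, made up 29.3% to 35.0% of a table in the 10 µg/kg group against 21.04% to 25.8% in the other 21 libraries, and their part in the results at this dose was not tested.

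No change in Alb passed the test at any dose. Alb, the defining product of hepatocytes, was the ID with the most counts in 24 of 24 libraries. It took between 9.57% and 14.05% of all gene counts, with a median of 11.8%. The highest library thus exceeded the lowest by 1.47-fold. In vehicle the 3 libraries held 11.1%, 12.1% and 12.9% of gene counts as Alb. At 10 µg/kg they held 10.8%, 12.0% and 11.3%, so that 2 of the 3 shares lay inside the vehicle range. After TMM scaling, which the test used, all 3 libraries at 10 µg/kg lay below every vehicle library.

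The group means of the Alb share ran from 10.99% ± 1.401 (SD, n = 3) at 0.01 µg/kg to 12.4% ± 1.095 at 3 µg/kg. In between, in ascending order, stood 0.03 µg/kg (11.2% ± 1.29), 10 µg/kg (11.4% ± 0.597), 0.3 µg/kg (11.5% ± 0.668), vehicle (12.0% ± 0.896), 1 µg/kg (12.2% ± 1.04) and 0.1 µg/kg (12.2% ± 1.88). Every neighbouring pair in this order overlapped. The libraries held 12.4%, 9.57% and 11.02% in the 0.01 µg/kg group, 9.77%, 12.2% and 11.6% in the 0.03 µg/kg group and 12.2%, 10.8% and 11.5% in the 0.3 µg/kg group. They held 11.2%, 13.3% and 12.0% in the 1 µg/kg group and 11.7%, 13.7% and 11.8% in the 3 µg/kg group. The widest group was 0.1 µg/kg, where the libraries held 14.05%, 12.2% and 10.3% and spanned nearly the whole range of the study.

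At 10 µg/kg its log2 fold change was -0.25 (SE 0.170, 95% interval -0.61 to 0.10, edgeR adjusted p = 0.286), which put the level between 0.656 and 1.07 times that of vehicle. Without a scaling factor it was -0.08. At the 6 lower doses the log2 fold change lay between -0.17 and 0.07, with adjusted p of 0.766 to 0.989. The slope per step of dose was -0.0017 (95% interval -0.0423 to 0.0389, edgeR adjusted p = 0.959), and the test for any difference among the 8 groups gave an adjusted p of 0.690. The slope's direction turned with the scaling and with single libraries, as did the direction of the fold change at 0.1 µg/kg, and with single libraries only at 1 and 3 µg/kg. From 3 to 10 µg/kg the log2 fold change of Alb was -0.32 (95% interval -0.68 to 0.03, edgeR adjusted p = 0.289). Since liver was sequenced whole, fewer hepatocytes and less RNA of a gene per hepatocyte cannot be told apart.

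**Figure D1:**
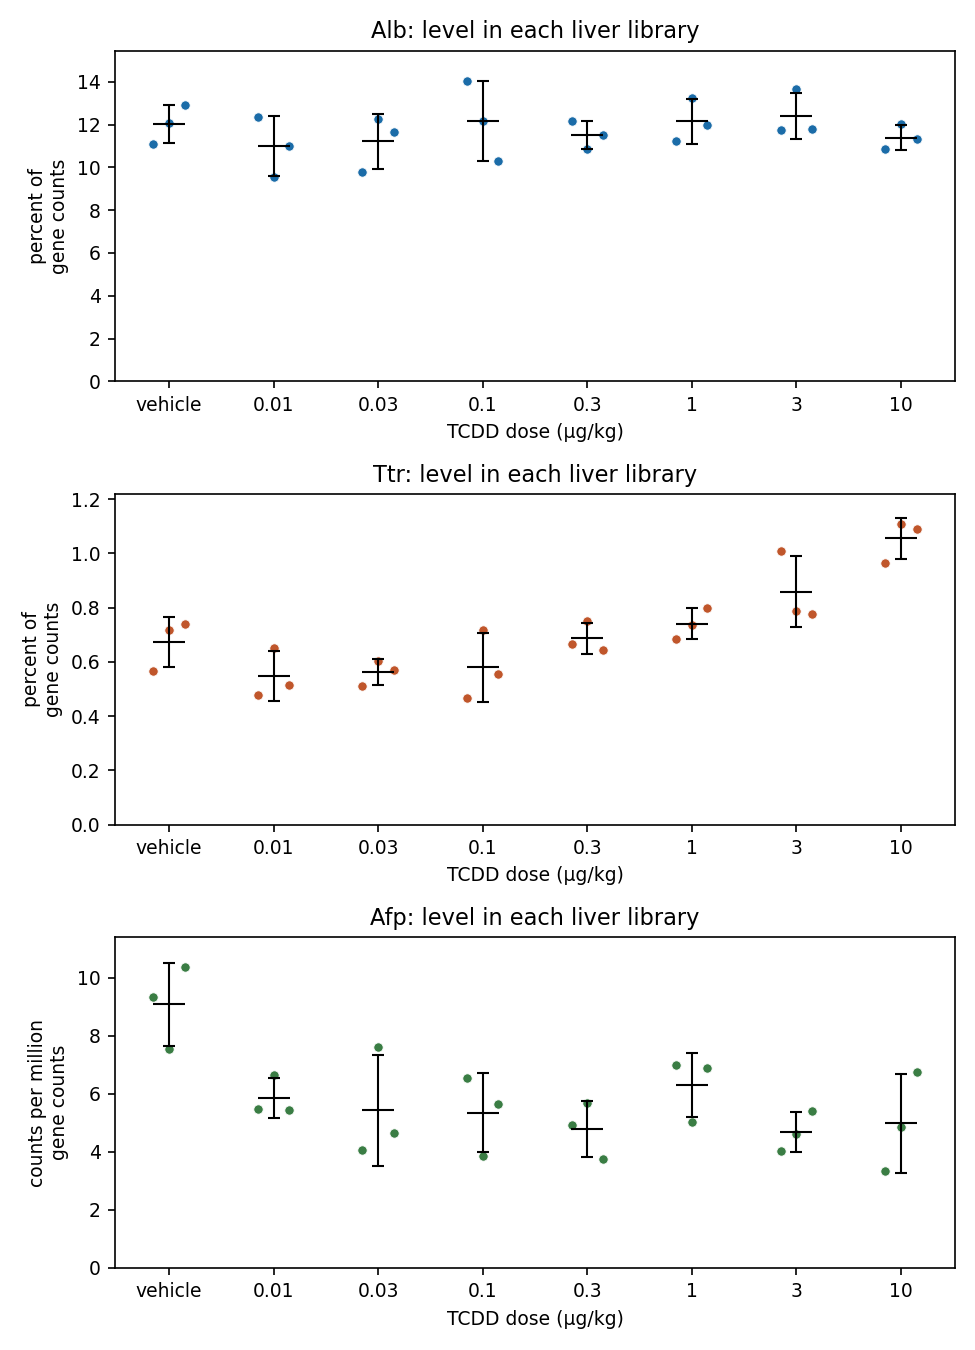
Level of Alb and Ttr (percent of gene counts, linear axes) and of Afp (counts per 1000000 gene counts, linear axis) in each of the 24 libraries by TCDD dose. Points are libraries, and bars are the mean ± SD of 3. Alb stays between 9.57% and 14.05%, and Ttr reaches 0.966% to 1.11% at 10 µg/kg. For Afp, 20 of 21 treated libraries lie below each of the same 3 vehicle libraries, and the share of all IDs with such a count was not computed.

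Ttr, the thyroxine and retinol carrier, rose with dose. In vehicle the 3 libraries held 0.568%, 0.717% and 0.738% of gene counts as Ttr. At 10 µg/kg they held 0.966%, 1.11% and 1.09%, all above every vehicle library. Its place by counts went from between 16 and 23 in vehicle to 10 or 11 at 10 µg/kg. That place also depends on transcript length and on the changes of the other abundant IDs.

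The mean Ttr share was 0.674% ± 0.0927 (SD, n = 3) in vehicle and 1.06% ± 0.0774 at 10 µg/kg, a ratio of 1.56. At 3 µg/kg the libraries held 1.01%, 0.789% and 0.778%, with a mean of 0.859% ± 0.131. All 3 exceeded the highest vehicle library, although replicate 1 stood apart from the other two. Ranges that lay wholly above vehicle were found for 13.3% of the 12496 IDs at 3 µg/kg and 29.8% at 10 µg/kg.

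Below 1 µg/kg the Ttr means did not lie above vehicle in a regular way. They were 0.549% ± 0.0916 in the 0.01 µg/kg group, 0.563% ± 0.0466 in the 0.03 µg/kg group and 0.580% ± 0.128 in the 0.1 µg/kg group, each under the vehicle mean with a range that overlapped vehicle. The 9 libraries of these groups held 0.480%, 0.653% and 0.515%, then 0.512%, 0.604% and 0.572%, then 0.467%, 0.720% and 0.554%, so the highest of each group reached into the vehicle range. The 0.3 and 1 µg/kg groups, with libraries at 0.667%, 0.752% and 0.644% and at 0.686%, 0.738% and 0.798%, had means of 0.688% ± 0.0567 and 0.741% ± 0.0563, again with ranges that overlapped vehicle. From 0.01 to 10 µg/kg the mean rose at 6 of the 6 steps between doses, while every neighbouring pair of groups overlapped, 3 and 10 µg/kg included. The share of all IDs with such a run of steps was not computed.

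The slope of Ttr per step of dose, from vehicle to 10 µg/kg, was 0.10 on the log2 scale (SE 0.0223, 95% interval 0.0502 to 0.142, edgeR adjusted p = 0.00171). Leaving out any 1 of the 24 libraries gave an adjusted p between 0.000308 and 0.00587. Fitted over the 7 TCDD doses without vehicle, an analysis added after the levels had been seen, the slope was 0.15 (SE 0.0229, edgeR adjusted p = 3.94e-05). That fit called 3613 of 12448 IDs. The test for any difference among the 8 groups also called Ttr (edgeR adjusted p = 0.00738). Of the 12496 IDs, 33.6% were called for the trend, 17.8% with a positive slope as Ttr, and 21% for any dose.

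Against vehicle alone, Ttr at 10 µg/kg missed the threshold, with a log2 fold change of 0.47 (SE 0.179, 95% interval 0.10 to 0.84, edgeR adjusted p = 0.0548). With the replicate number as a block, which called 3773 of 12496 IDs at this dose, the adjusted p was 0.0239 (log2 fold change 0.48). DESeq2, which called 29.9% of IDs at this dose, gave 0.0332. With 1 of the 6 libraries left out edgeR called it in 0 of 6 fits, with adjusted p of 0.0558 to 0.223 and a log2 fold change from 0.34 (without vehicle replicate 1) to 0.57. Without any scaling factor the log2 fold change was 0.65 with an adjusted p of 0.00476, and 3473 of 12496 IDs were called. That setting moved the median log2 fold change of all IDs at this dose from -0.02 to 0.16, and relative to the median Ttr was 0.49 higher under both. At 3 µg/kg the log2 fold change was 0.37 (SE 0.179, 95% interval -0.0067 to 0.739, adjusted p = 0.193). It was 0.10 for 10 against 3 µg/kg (95% interval -0.27 to 0.48, edgeR adjusted p = 0.793).

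At 0.01, 0.03 and 0.1 µg/kg the log2 fold change of Ttr was -0.33, -0.31 and -0.26 (edgeR adjusted p = 0.658, 0.728 and 0.607). The values of the 0.3 and 1 µg/kg groups were -0.042 and 0.13 (edgeR adjusted p = 0.939 and 0.760). The direction at 0.3 µg/kg turned without a scaling factor (0.028) and in 3 of 6 fits that left out 1 library (-0.17 to 0.061). The 95% intervals at these doses reached from -0.71 to 0.51 in all.

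**Figure D2:**
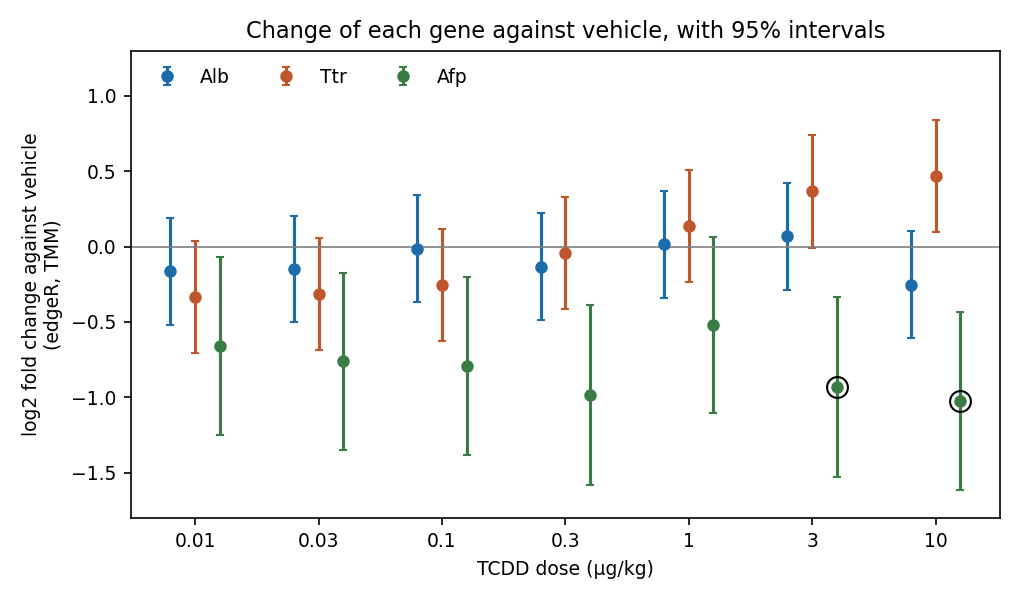
Log2 fold change of Alb, Ttr and Afp at each TCDD dose against vehicle (linear axis of log2 values), from the edgeR fit of all 24 libraries with TMM scaling. Bars are 95% intervals, and rings mark an adjusted p below 0.05; Alb lies between -0.25 and 0.07, Ttr goes from -0.33 to 0.47, and Afp lies below 0 at all 7 doses with rings at 3 and 10 µg/kg.

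Afp, the fetal relative of albumin, was scarce in all livers. Its mean lay below vehicle at 7 of 7 doses, but edgeR called it only at 3 and 10 µg/kg. Its counts were 45 to 123 per library, or 3.35 to 10.4 counts per 1000000 gene counts (CPM), and its rank by counts, which also depends on transcript length, lay between 6243 and 9546. The 3 vehicle libraries held 9.36, 7.54 and 10.4 CPM. The 95% Wilson intervals of these shares were 7.84 to 11.2, 6.21 to 9.16 and 8.69 to 12.4, so counting error alone was a sizeable part of the spread.

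Of the 21 treated libraries, 20 held less Afp than every vehicle library. The exception was replicate 2 at 0.03 µg/kg, with 7.61 CPM against 7.54 in the lowest vehicle library. All 21 were set against the same 3 vehicle libraries, and the share of all IDs with such a count was not computed. The mean of Afp was 9.09 ± 1.43 CPM (SD, n = 3) in vehicle. From the lowest dose up, the means were 5.87 ± 0.689, 5.44 ± 1.91, 5.35 ± 1.36, 4.78 ± 0.962, 6.30 ± 1.09, 4.70 ± 0.694 and 4.99 ± 1.70 CPM, and 7 of 7 lay below vehicle.

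The libraries held 5.49, 6.66 and 5.45 CPM in the 0.01 µg/kg group, 4.06, 7.61 and 4.64 in the 0.03 µg/kg group and 6.54, 3.87 and 5.65 in the 0.1 µg/kg group. In the 0.3 µg/kg group they held 4.92, 5.67 and 3.76 CPM, and in the 1 µg/kg group 6.98, 5.04 and 6.88. The step from vehicle to the lowest dose was thus larger than any later step between the means, with no regular order among the doses. From low to high the means stood in the order 3, 0.3, 10, 0.1, 0.03, 0.01 and 1 µg/kg, then vehicle. In this order all neighbours overlapped but for vehicle and 1 µg/kg, the next highest. All 3 libraries lay below every vehicle library at each dose except 0.03 µg/kg. Of the 12496 IDs, from the lowest dose up, 3.71%, 3.27%, 5.67%, 4.2%, 9.7%, 13.6% and 12.7% had all 3 treated libraries below every vehicle library.

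The edgeR test called Afp lower at 3 and 10 µg/kg. At 10 µg/kg, where the libraries held 3.35, 4.87 and 6.74 CPM, the log2 fold change was -1.03 (SE 0.283, 95% interval -1.62 to -0.44, edgeR adjusted p = 0.00998). Without 10 µg/kg replicate 1, the lowest of them, it was -0.81 with an adjusted p of 0.0562, and without a scaling factor it was -0.86. At 3 µg/kg, with 4.04, 4.62 and 5.42 CPM, it was -0.93 (SE 0.286, 95% interval -1.53 to -0.34, edgeR adjusted p = 0.0355). This call ended when any 1 of the 6 libraries was left out, with adjusted p of 0.0627 to 0.109.

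At the lower doses edgeR did not call Afp. The log2 fold change was -0.98 at 0.3 µg/kg (95% interval -1.58 to -0.39, edgeR adjusted p = 0.0782, DESeq2 adjusted p = 0.0288). For the doses of 0.01, 0.03 and 0.1 µg/kg it was -0.66, -0.76 and -0.79 (edgeR adjusted p = 0.546, 0.564 and 0.204), and for 1 µg/kg it was -0.52 (0.355). The log2 fold change of 10 against 3 µg/kg was -0.10 (95% interval -0.70 to 0.51, edgeR adjusted p = 0.890). It turned to 0.092 without a scaling factor and to 0.12 without 10 µg/kg replicate 1, and was -0.38 without 10 µg/kg replicate 3.

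The Afp slope over vehicle and the 7 doses was called, at -0.10 per step on the log2 scale (SE 0.0327, edgeR adjusted p = 0.0203). A negative slope was called for 15.8% of all IDs. Over the 7 doses without vehicle the Afp slope was -0.038 (95% interval -0.12 to 0.043, edgeR adjusted p = 0.495) and was not called. The call was also lost without vehicle replicate 1 (edgeR adjusted p = 0.0575), vehicle replicate 3 (0.0659) or 10 µg/kg replicate 1 (0.0551). The test for any difference among the 8 groups missed the threshold (edgeR adjusted p = 0.0913).

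Counted together, edgeR called 1 of the 3 genes at 10 µg/kg and the same gene, Afp, at 3 µg/kg, where 28.2% and 13.3% of all IDs were called, 13.5% and 5.32% as lower. It called 0 of 3 at 1, 0.3, 0.1, 0.03 and 0.01 µg/kg, where 2.11%, 2.06%, 0.92%, 0.016% and 0.008% of all IDs were called. At an unadjusted p below 0.05 stood 0 of 3 at 1 µg/kg and 1 of 3, Afp, at each of the 4 doses under it, against 17.1%, 15%, 13.1%, 7.46% and 8.29% of all IDs from 1 µg/kg down. DESeq2 called Afp at 0.3 µg/kg and 0 of 3 at the other 4 of these doses. Of the IDs to which it gave an adjusted p, it called 5.1%, 4.64%, 2.51%, 0.326% and 0.12% in the same order. For 10 against 3 µg/kg, edgeR and DESeq2 called 0 of 3, with 0 at an unadjusted p below 0.05. Of all IDs edgeR called 5.29% and DESeq2 7.73%, and 20.8% had such an unadjusted p. All 7 comparisons with vehicle share its 3 libraries.

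The ratio of 2 transcripts within a library needs no library size, but it carries the change of both. At 10 µg/kg the log2 fold change relative to the median of all IDs (edgeR, TMM) was -0.24 for Alb and 0.49 for Ttr. The share of all IDs whose ratio to Alb left the vehicle range was not computed. In vehicle there were 5.11, 5.94 and 5.72 Ttr counts per 100 Alb counts, and at 10 µg/kg there were 8.92, 9.22 and 9.65. The mean was 5.59 ± 0.428 in vehicle and 9.26 ± 0.366 in the 10 µg/kg group (SD, n = 3), a ratio of 1.66, with no overlap (exact two-sided permutation p = 0.10, the smallest that 3 against 3 allows, and 0.20 after Benjamini-Hochberg adjustment over 14 such tests). At 3 µg/kg the ratio was 6.99 ± 1.46, with libraries at 8.60, 5.77 and 6.59, and overlapped vehicle. The 10 µg/kg libraries were the 3 highest of the study, and 3 µg/kg replicate 1 came next.

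Afp counts per 1000000 Alb counts were 84.2, 62.5 and 80.4 in vehicle and 30.9, 40.5 and 59.6 at 10 µg/kg. The means were 75.7 ± 11.6 and 43.7 ± 14.6 (SD, n = 3; exact two-sided permutation p = 0.10, adjusted 0.20). Over the 7 doses the mean ratio ranged from 38.1 ± 6.85 at 3 µg/kg to 54.5 ± 13.4 at 0.01 µg/kg. Only the 0.01 µg/kg group overlapped vehicle, through replicate 2 at 69.6. The highest libraries of the 0.03 and 1 µg/kg groups, at 62.20 and 62.24, lay just under the lowest vehicle library at 62.47.

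**Figure D3:**
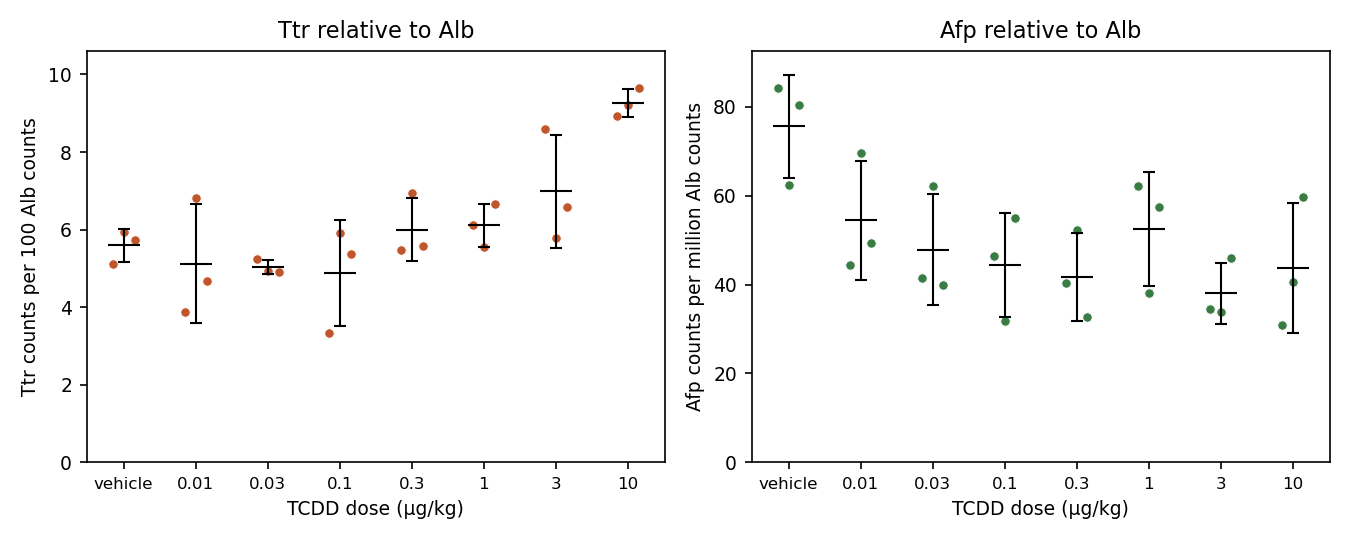
Ttr counts per 100 Alb counts and Afp counts per 1000000 Alb counts in each library by TCDD dose (linear axes). Points are libraries, and bars are the mean ± SD of 3; the Ttr ratio is highest at 10 µg/kg (8.92 to 9.65), and the mean Afp ratio is highest in vehicle (75.7).

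Tests of the plain shares cannot go below an exact permutation p of 0.10 with 3 libraries against 3. Over the 21 tests of 3 genes at 7 doses, 8 reached that value, with a Benjamini-Hochberg adjusted p of 0.263. These were the 6 doses at which the Afp libraries did not overlap vehicle, and Ttr at 3 and 10 µg/kg. After TMM scaling Ttr at 3 µg/kg overlapped vehicle, and Alb at 10 µg/kg no longer did. As a share of all rows of a table, those that name no gene included, Ttr made up 0.406% ± 0.0624 of the vehicle tables and 0.587% ± 0.0689 of those at 10 µg/kg (SD, n = 3). Alb made up 7.24% ± 0.673 of the vehicle tables and 6.33% ± 0.563 of those at 10 µg/kg, its lowest group mean on this measure. All rows include the non-unique alignments, which were more frequent at 10 µg/kg.

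How steady each gene was can be read against all IDs tested, as a description. The highest and lowest of the 8 group means of Alb differed by 0.31 on the log2 CPM scale, against a median of 0.66 over the 12496 IDs, and 9.79% of IDs spanned less. Among the 200 IDs closest to Alb in mean level, 15 spanned less. All of these lay below Alb in level, since it had the most counts in 24 of 24 libraries. Ttr spanned 0.82, with 62.2% of IDs and 107 of its 200 closest below it, and Afp 1.06, with 75.5% of IDs and 158 of its 200 closest below it.

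Within groups the SD on the same scale was 0.19 for Alb, 0.21 for Ttr and 0.36 for Afp, against a median of 0.29. Of the 200 IDs closest in level, which for Alb all lay below it, 78 had a lower SD than Alb. For Ttr 93 had a lower SD, and for Afp 135. For Afp, counting error alone gives a coefficient of variation of 11.9%. No relation between the genes' deviations from their group means passed the test over the 24 libraries. For Alb and Ttr r was 0.188 (permutation p = 0.536) and rho 0.253 (p = 0.365). For Alb and Afp r was 0.319 (permutation p = 0.275) and rho 0.176 (p = 0.508), and for Ttr and Afp r was 0.176 (permutation p = 0.493) and rho 0.209 (p = 0.408). Without a scaling factor the sign turned for Alb and Ttr (r = -0.15) and for Ttr and Afp (r = -0.0029). Without the 2 libraries farthest from the median of the first gene, r was 0.242, 0.067 and 0.316. After Benjamini-Hochberg adjustment over the 3 pairs of genes, the permutation p was 0.536 for each r and 0.508 for each rho.

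**Figure D4:**
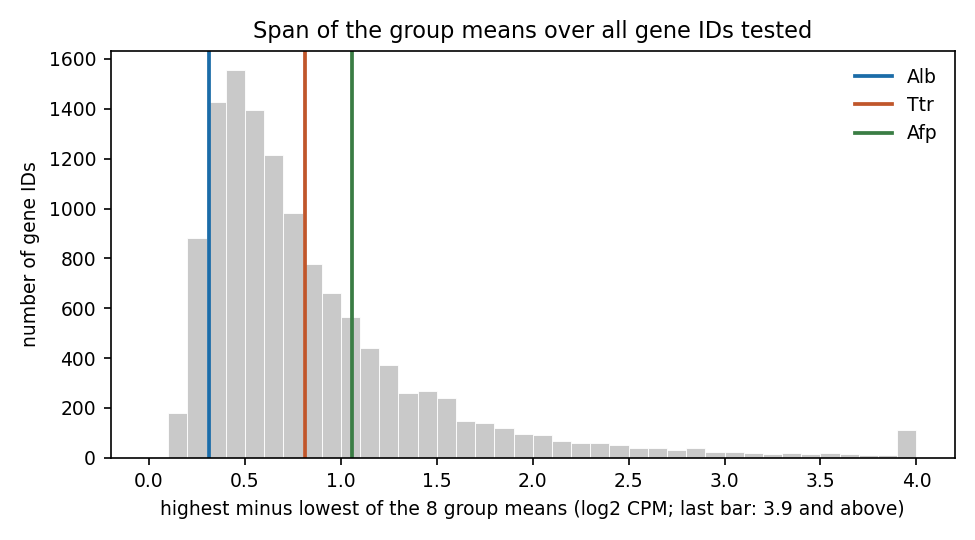
Difference between the highest and lowest of the 8 group means (log2 CPM, TMM) for the 12496 gene IDs tested, as a histogram with bins of 0.1; the last bar gathers the widest spans. Lines mark Alb at 0.31, Ttr at 0.82 and Afp at 1.06.

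Among the other 12495 IDs, the pattern most like that of Ttr over the 24 libraries was that of ENSRNOG00000001874 (Pearson r = 0.879 on log2 CPM), and 30 IDs had an r above 0.8 with Ttr. That ID was itself low, with 0.793 ± 0.446 TMM-scaled CPM in the vehicle group against 3.13 ± 0.0875 in the 10 µg/kg group (SD, n = 3). The ID most like Afp was ENSRNOG00000018042 (r = 0.76), with 18.1 ± 1.68 TMM-scaled CPM in vehicle against 13.5 ± 1.90 for the 10 µg/kg group. Alb had no closer partner than r = 0.773, and 0 IDs exceeded 0.8 with Alb or with Afp. These values share libraries, depth and dose order. Of the 20 IDs with the largest shares in vehicle, Alb was 1 of 11 that were not called at 10 µg/kg, while 8 fell and 1 rose, where 28.2% of all IDs were called and 13.5% as lower. The median log2 fold change of these 20 was -0.36, against -0.02 for all IDs and -0.25 for Alb.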

How the data were processed

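Whole-liver RNA of 24 rats was sequenced, and the authors deposited raw counts per Ensembl gene ID, 1 table per rat. Per the labels' protocols, total RNA was extracted in TRIzol, and an Illumina TrueSeq RNA kit served for the libraries. The submitters' processing notes name TopHat 1.4.1 and HTSeq 0.6.1 among their tools, with no order or role. The genome build, the annotation and the strand setting of the counting are not given in the sources used here, so reads of overlapping or antisense genes could not be separated. The 5 HTSeq summary rows (35.8% to 47.5% of a table) were kept out of library sizes.

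The test used edgeR 4.0.16 under R 4.3.3 (filterByExpr, TMM factors of 0.898 to 1.11, glmQLFit with a mean per group and 16 residual degrees of freedom, glmQLFTest). The fit covered all IDs that passed, and p-values were adjusted over all of them. The standard error is the log2 fold change divided by the square root of F, and 95% intervals use the t distribution with the model's total degrees of freedom. The trend used the rank of the dose. Log2 CPM used TMM-scaled library sizes and a prior count of 2. Shares, ratios and permutation tests (exact, or 100000 resamples within groups for correlations) used SciPy 1.17.1. The pipeline was tested on simulated data. Within-group pairs of libraries differed by more than sampling noise (chi-square of 13.0 to 54.3 per degree of freedom). The labels call the libraries biological replicates.

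The members and lists were chosen with earlier results of these data known. The 3 genes were named whatever their values, and besides them the ID most alike to each by r. Lists of other plasma proteins, hepatocyte factors and markers of other cell types were not applied, since 0 of 26404 IDs matched the 47357 rows of the RefSeq table, which held 0 Ensembl IDs; the 3 members were matched to it by symbol. Same-numbered libraries of vehicle and a dose deviated together in every pair (r above 0.1) at 1 and 10 µg/kg (0.144 to 0.441 at 10 µg/kg), but not in the other 6 comparisons. By mean r with the other groups, 15 of 24 libraries deviated most like the libraries of their own number. The main fit held no replicate block. The numbers come from the labels, which do not say what they share. Alternatives were RLE scaling, no scaling factor, DESeq2 1.42.0, 2 other filters, the replicate block, a fit of 2 groups, another dose scale, other denominators and leaving out each library. The fit of the 7 doses alone was added after the data were seen.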

Additional observations from a re-analysis of the deposited data

How the results depend on the processing

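Over 68 results, 279 values under alternatives that keep all libraries of a comparison and 498 values with 1 library left out were computed. RLE scaling, no low-count filter, a fit of only the compared groups and log10 of the dose changed no direction and no call. Without a scaling factor Ttr at 10 µg/kg was called (log2 fold change 0.65). It was also called by DESeq2 (0.48), with 1 CPM required in 3 libraries (0.48) and with the replicate block (0.48). The block changed no other call. Of all IDs at this dose, 3473 of 12496 were called without a scaling factor and 3737 of 12496 by DESeq2. The 1 CPM filter called 3490 of 12141, and the block 3773 of 12496. DESeq2 also called Afp at 0.3 µg/kg (-0.99) and for any dose (adjusted p = 0.0302). It called 4.64% of the IDs with an adjusted p at 0.3 µg/kg, and 3678 of 12496 IDs for any dose. Over the 7 doses only, the Afp slope was not called (-0.038). The cause was not tested. Directions near 0 turned. Without a scaling factor Alb at 0.1 µg/kg was 0.017, Ttr at 0.3 µg/kg 0.028, Afp in 10 against 3 µg/kg 0.092 and the Alb slope 0.0070. The Alb slope was also above 0 with the 1 CPM filter (0.00020) and over the 7 doses (0.011). On TMM-scaled CPM the log2 ratio of shares was -0.014 for Alb at 0.1 µg/kg and -0.042 for Ttr at 0.3 µg/kg. Within groups, r without a scaling factor was -0.15 for Alb and Ttr and -0.0029 for Ttr and Afp. With 1 library left out, the log2 fold change of Alb ranged from -0.15 to 0.12 for the dose of 0.1 µg/kg, -0.054 to 0.061 for 1 µg/kg and -0.045 to 0.14 for 3 µg/kg. That of Ttr ranged from -0.17 to 0.061 for 0.3 µg/kg and -1.66e-05 to 0.23 for 10 against 3 µg/kg. That of Afp ranged from -1.01 to -0.82 for 3 µg/kg, -1.31 to -0.81 for 10 µg/kg and -0.38 to 0.12 for 10 against 3 µg/kg. The slope ranged from -0.0095 to 0.0059 for Alb and -0.12 to -0.081 for Afp. The adjusted p of Afp for any dose ranged from 0.0272 (without 0.03 µg/kg replicate 2) to 0.265. The log2 ratio of shares ranged from -0.10 to 0.12 (Alb, 0.1 µg/kg), -0.053 to 0.069 (Alb, 1 µg/kg), -0.031 to 0.10 (Alb, 3 µg/kg) and -0.081 to 0.10 (Ttr, 0.3 µg/kg). The log2 change of Ttr per Alb ranged from -0.39 to 0.017 (0.01 µg/kg), -0.40 to 0.015 (0.1 µg/kg) and -0.013 to 0.16 (0.3 µg/kg). Fewer libraries also widen the error. Counts of 45 to 123 limit the precision of Afp.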

Other observations

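Alb and Ttr stood at opposite ends in single rats of some low-dose groups but not of others. Replicate 1 at 0.1 µg/kg held the highest Alb share of the study (14.05% of gene counts) and the lowest Ttr share (0.467%). Replicate 2 at 0.01 µg/kg held the lowest Alb share of the study (9.57%) and the highest Ttr share of its group (0.653%). Their ratios were 3.32 and 6.82 Ttr counts per 100 Alb counts. At 0.03 µg/kg both genes ran together, with replicate 1 lowest (9.77% Alb, 0.512% Ttr) and replicate 2 highest (12.2% and 0.604%). Over all groups the within-group r was 0.188. These rats were picked after their values were seen.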
